A study of Mus musculus with 8 samples.

Results

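Interferon-stimulated genes are genes whose transcription is switched on when a cell senses interferon, and 48 of them were followed here in common dendritic cell progenitors (CDPs) from the bone marrow (BM) of mice on 2 diets. The members were taken from a fixed list of symbols matched to the rows of the gene count table, and all 48 were found among its 16119 genes and kept among the 15837 genes tested. C57BL/6 mice (males on a C57BL/6J background in the methods of the study) received a high-fat diet with 60 kcal% fat for 16 weeks (HFD, diet-induced obesity) or a control feed with 10 kcal% fat (CF) in age-matched controls, and diet was the only treatment the labels name. CDPs were sorted as Lin-, c-Kit intermediate, Sca1 low, CD115+ and Flt3+ cells, about 50000 per replicate, and RNA of 4 replicates per diet was sequenced. The comparison of HFD with CF asks how the transcriptome of these progenitors differs in obesity. The labels count 4 per group without tying a library to a single mouse, so the p-values measure the spread between these samples. In bulk RNA, fewer cells of a type and less RNA per cell cannot be told apart.

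Type I interferons bind IFNAR1 and IFNAR2, which through JAK1 and TYK2 activate the ISGF3 complex, which holds STAT2 and IRF9. ISGF3 binds the interferon-stimulated response element (ISRE) in the promoters of its targets, while interferon gamma acts mainly through the gamma-activated site (GAS). The targets sense viral RNA and DNA, degrade or modify RNA, block viral translation and assembly, and feed back on the pathway. Stem and progenitor cells are known to keep part of this set switched on without infection, and plasmacytoid dendritic cells, which descend in part from CDPs, are the main producers of type I interferon.

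The promoter sequences show what the members share beside the list. RefSeq promoter windows of 300 bases (GRCm38.p6, 250 before and 50 after the start site) were given for 38 of the 48 members, some with more than 1 start. The ISRE core, searched as GAAANNGAAA on both strands, was present in 21 of the 47 windows of members (44.7%), against 3.44% of all 32851 windows. A GAS, searched as TTCNNNGAA, was in 8 of the 47 windows (17.0%), against 8.30% of all windows. The following stretches are the 120 bases before the start site, 5′ to 3′ on the strand of the gene, with ISRE matches in capitals (on the opposite strand the core reads TTTCNNTTTC). The first pair comes from Oas1a, whose product activates RNA degradation, and from Isg15, a ubiquitin-like modifier, and is shown for its repeated matches.

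Oas1a chr5:120907526-120907645 (-): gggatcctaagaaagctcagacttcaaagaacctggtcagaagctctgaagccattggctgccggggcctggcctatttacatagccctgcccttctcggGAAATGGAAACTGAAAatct
Isg15 chr4:156200819-156200938 (-): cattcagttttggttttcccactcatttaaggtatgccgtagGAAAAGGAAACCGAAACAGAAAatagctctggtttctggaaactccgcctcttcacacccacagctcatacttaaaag

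The ISRE core occurred 2 times in the stretch of Oas1a, the nearest 4 bases before the start, and 3 times in an overlapping run in that of Isg15. The next set shows single matches in an antiviral enzyme (Rsad2), a Schlafen gene (Slfn8), a pair of neighbouring immunity-related GTPases (Igtp and Irgm2) and the member with the highest level per kb (Trim30a).

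Rsad2 chr12:26456453-26456572 (-): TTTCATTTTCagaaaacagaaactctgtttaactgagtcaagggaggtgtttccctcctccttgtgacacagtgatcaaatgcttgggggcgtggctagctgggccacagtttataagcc
Slfn8 chr11:83020811-83020930 (-): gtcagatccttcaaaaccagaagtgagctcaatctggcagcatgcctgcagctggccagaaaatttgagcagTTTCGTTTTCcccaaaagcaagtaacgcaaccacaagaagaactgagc
Igtp chr11:58199436-58199555 (+): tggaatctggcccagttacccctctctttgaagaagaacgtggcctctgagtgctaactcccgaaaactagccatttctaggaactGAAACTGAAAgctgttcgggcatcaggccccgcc
Irgm2 chr11:58214857-58214976 (+): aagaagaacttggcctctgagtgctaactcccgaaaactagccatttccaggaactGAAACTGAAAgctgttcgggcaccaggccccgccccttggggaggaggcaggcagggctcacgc
Trim30a chr7:104465194-104465313 (-): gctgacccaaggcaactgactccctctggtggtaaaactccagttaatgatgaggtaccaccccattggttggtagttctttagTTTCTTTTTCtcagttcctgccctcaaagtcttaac

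In these 5 stretches the match lay between 24 and 110 bases before the start. Oasl2 and Parp12, which were called only in some of the alternative fits below, held no match to these letters in their windows. Their stretches are given for contrast.

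Oasl2 chr5:114896814-114896933 (+): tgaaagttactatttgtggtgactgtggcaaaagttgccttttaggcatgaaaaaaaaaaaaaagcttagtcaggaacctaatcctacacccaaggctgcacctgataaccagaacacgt
Parp12 chr6:39118350-39118469 (-): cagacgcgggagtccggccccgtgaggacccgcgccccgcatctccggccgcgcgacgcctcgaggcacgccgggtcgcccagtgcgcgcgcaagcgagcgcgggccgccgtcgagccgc

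A match describes the sequence alone and is not a bound site.

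Total counts per library ran from 28203651 to 48409689, and the sort markers Csf1r (CD115), Flt3, Kit and Ly6a (Sca1) were detected in all 8 libraries, with Ly6a at 1.37 to 3.25 CPM (a gene's share of the counts of a library, scaled by TMM). HFD replicate 1 had less of some progenitor transcripts, with Flt3 at 88.8 CPM against 227 to 378 CPM in the other 7 libraries, and its 10 progenitor markers summed to 661 CPM against 1048 to 1419 CPM. The libraries differed in transcripts that mark other cells, among them neutrophil and erythroid cells, which the Lin- gate is meant to remove. Whether these transcripts came from carried-over cells or from the sorted progenitors was not tested. The summed CPM of 15 neutrophil markers was 20930 in HFD replicate 1, 980 to 3654 in HFD replicates 2 to 4, 1994 in CF replicate 1 and 6078 to 6702 in CF replicates 2 to 4, and none of the markers was at 0. Erythroid markers summed to 645 CPM in HFD replicate 1 and to 98.2 to 170 CPM elsewhere. B cell markers summed to 62.6 to 121 CPM in HFD and 62.7 to 90.3 CPM in CF, which overlapped. Of these 9 markers, 8 had a fitted value above 0, and 5 were higher at an unadjusted p under 0.05 (3.22% of all genes). The 11 plasmacytoid DC markers with values summed to 267 CPM in HFD replicate 1, 526 to 695 in the other HFD libraries and 313 to 398 in CF. All 11 had a fitted log2 fold change above 0, and 7 had an unadjusted p under 0.05 (3.22% of all genes higher). Among them Ptprcap shares all its exon bases with other genes, such as Coro1b on the same strand, so its counts may hold their reads. Siglech stood at 13.3, 49.5, 33.0 and 62.2 CPM in HFD against 13.02 to 17.1 CPM in CF. Conventional DC markers summed to 240 to 596 CPM in HFD and 627 to 1139 CPM in CF, with no overlap. Of the 10, 9 had a fitted value below 0, and 4 had an unadjusted p under 0.05 (5.34% of all genes lower). These 4 were Cd74, H2-Aa, H2-Ab1 and Ciita, all of antigen presentation by MHC class II. These markers and Itgax (CD11c) were singled out after their values were seen. Without Cd74, H2-Aa and H2-Ab1 the other 7 summed to 80.5 to 202 CPM in HFD and 152 to 194 CPM in CF, which overlapped, and Itgax had a log2 fold change of 0.54 (0.77 without HFD replicate 1, adjusted p = 0.0495). HFD replicate 1 and CF replicate 1 stood apart from their groups, and the counts and medians of the members are given with and without them below.

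All 48 members were transcribed in every library, at 7 to 5210 counts. Divided by exon length, Trim30a, a TRIM protein that restrains Toll-like receptor signalling, had the highest level, at 25.7 CPM per kb over the 8 libraries. Slfn2, a Schlafen protein that keeps lymphoid and myeloid cells quiescent, followed at 19.0, Sp100, a component of nuclear bodies, at 16.7, Trex1, the exonuclease that clears cytosolic DNA, at 14.2, and Samd9l, a growth-restraining antiviral protein, at 11.8 CPM per kb. At the other end stood Ifit1 at 0.97 and Ifit3 at 0.85 CPM per kb, both of which bind foreign RNA. The ranges of the libraries overlapped between neighbours among the 5 highest. Slfn2 spanned 10.9 to 73.1 CPM and Trex1 3.33 to 28.7 CPM between libraries, whereas Sp100 spanned 99.4 to 146 CPM. All exon bases of Trex1 are shared with Atrip on the same strand, so its counts may hold reads of that gene.

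**Figure D1:**
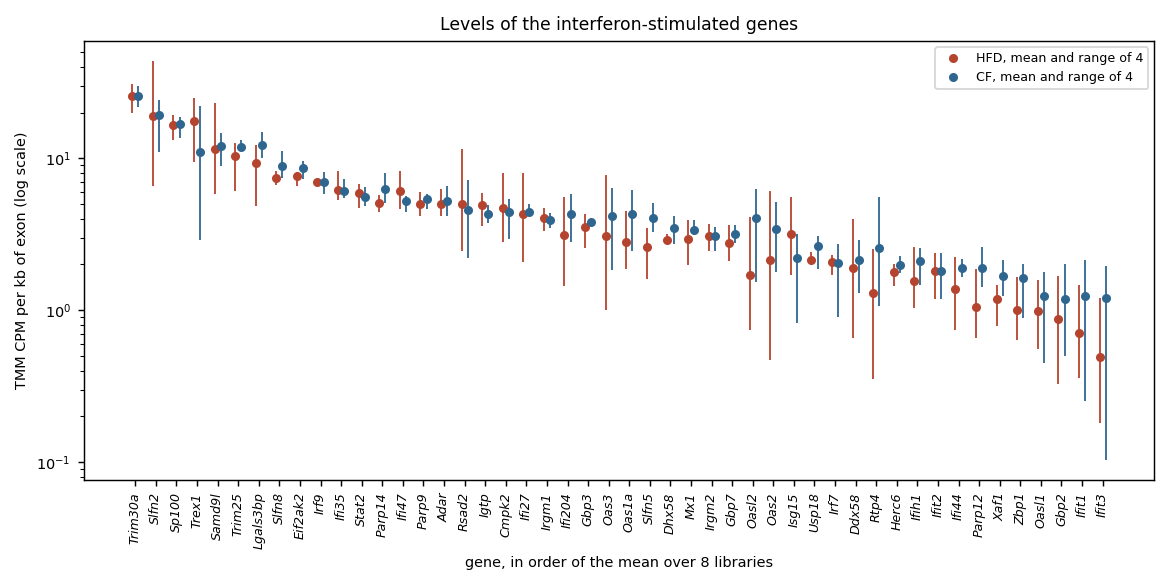
Levels of the 48 genes in TMM-scaled CPM per kb of exon (log scale), in order of the mean over 8 libraries, with the mean (point) and range (line) of 4 HFD and 4 CF libraries. The means of the diets lie close together for Trim30a and Sp100, and the lines are longest for genes such as Ifit3, Oas2, Ifit1 and Oas3.

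No interferon-stimulated gene passed an adjusted p of 0.05 between HFD and CF with all 8 libraries, against 0.423% of all genes tested, every one of them lower in HFD. At an unadjusted p under 0.05, 2 of the 48 members were lower, Slfn5 and Parp12, and 0 were higher, against 5.34% (lower) and 3.22% (higher) of all genes, non-coding genes included. All members are protein-coding, and in a fit of protein-coding genes alone, in which no gene was called, 3 of the 48 were lower at an unadjusted p under 0.05, against 2.14% of those genes. DESeq2 and limma voom also called 0 members, and each had 3 at an unadjusted p under 0.05, all lower, against 5.95% and 5.74% of all genes. The direction of the fitted values was less even, and 38 of the 48 members had a fitted log2 fold change below 0, against 40.3% of all genes, and the median was -0.18 against 0.055 for all genes. When libraries were scaled by their size alone, 24 of the 48 were below 0 (19.3% of all genes), and the median became 0.00073 as that of all genes moved to 0.25. Relative to the median of all genes, the members' median was -0.23 under TMM and -0.25 under library size alone, with 41 and 40 of the 48 below it. The HFD and CF libraries overlapped for each of the 48 members, against 6.16% of all genes with no overlap. Of protein-coding genes, 0.951% had no overlap with HFD lower and 2.81% with HFD higher. The median of the HFD libraries lay below that of the CF libraries for 42 of the 48 members, and for 45.9% of all genes.

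**Figure D2:**
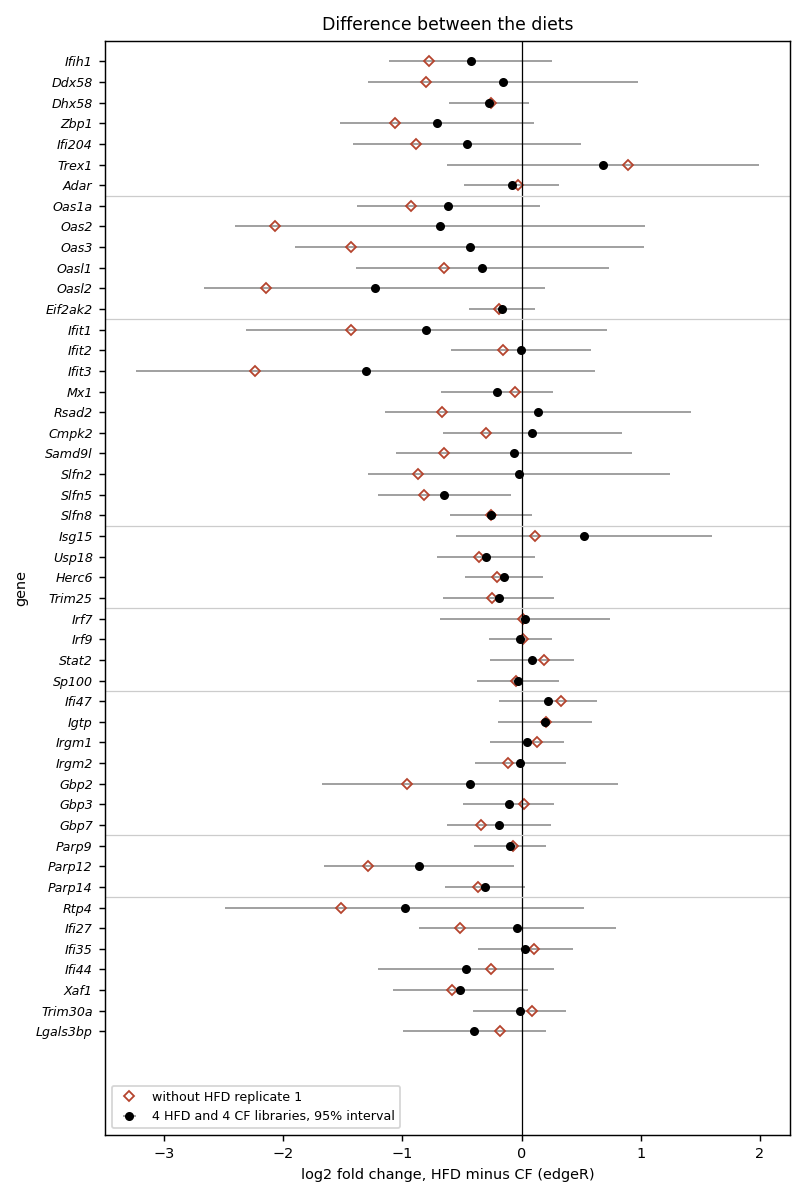
Log2 fold change of HFD minus CF for the 48 genes, grouped by role, with all 8 libraries (black points, lines for the 95% interval) and without HFD replicate 1 (open red diamonds). The intervals of Slfn5 and Parp12 alone lie below 0, and the diamonds of Oas2, Oasl2, Oas3 and Ifit3 lie more than 0.9 to the left of their points.

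The cytosolic sensors and their brakes detect foreign or misplaced nucleic acid, and 6 of these 7 genes had a fitted value below 0 (5 under library size alone), with a median log2 fold change of -0.27. Zbp1, a sensor of Z-form nucleic acid that can trigger cell death, was at 5.84, 3.46, 2.62 and 2.23 CPM in HFD replicates 1 to 4 and at 3.13, 7.09, 6.80 and 6.08 CPM in CF replicates 1 to 4. The first replicate of each diet was thus out of order, HFD high and CF low, and the log2 fold change of -0.71 (SE 0.36) had an adjusted p of 0.68. Ifih1 encodes MDA5, a sensor of long double-stranded RNA, and showed the same order, with 21.1, 11.6, 9.97 and 8.47 CPM in HFD against 11.96, 19.9, 20.8 and 16.2 CPM in CF. Its HFD replicates 2 to 4 all lay below the lowest CF library. Ddx58, which encodes the RNA sensor RIG-I, ranged from 4.64 to 27.95 CPM in HFD and from 9.12 to 20.5 CPM in CF. Dhx58, their regulator LGP2, varied little, at 9.45 ± 0.62 CPM in HFD and 11.4 ± 2.03 CPM in CF (SD, n = 4), with a log2 fold change of -0.27 (SE 0.15) and an adjusted p of 0.73. Trex1 went the other way, at 10.8, 22.1, 18.9 and 28.7 CPM in HFD and 14.8, 25.4, 6.64 and 3.33 CPM in CF. Its fitted log2 fold change was 0.68 (SE 0.58, adjusted p = 0.84), and the exon bases it shares with Atrip limit how that value can be read.

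The 2′-5′-oligoadenylate synthetases (OAS) make the second messenger that activates RNase L, and PKR (Eif2ak2) blocks translation when it meets double-stranded RNA. All 6 genes of this group had a fitted value below 0 under TMM and 5 under library size alone, the median was -0.52, and none passed the test. Oasl2, a family member with ubiquitin-like domains, lies on chromosome 5 of GRCm38 (114896936 to 114912234). Its level was 26.3, 7.61, 5.04 and 4.76 CPM in HFD and 9.84, 27.3, 39.8 and 25.6 CPM in CF. HFD replicates 2 to 4 lay below all CF libraries, and HFD replicate 1 lay among the upper CF libraries. The log2 fold change was -1.23 (SE 0.63, adjusted p = 0.69). Oas2 (chr5:120730333-120749853) was at 27.1, 4.53, 4.28 and 2.09 CPM in HFD and 7.98, 17.0, 23.1 and 12.9 CPM in CF. Here HFD replicate 1 was the highest and HFD replicate 4 the lowest of all libraries, which differed 12.98-fold. The log2 fold change between the diets was -0.69 (SE 0.75, adjusted p = 0.89). Oas3, its neighbour on chromosome 5 (120753098 to 120777661), had 54.6, 14.6, 11.3 and 7.11 CPM in HFD and 12.97, 32.4, 45.4 and 27.5 CPM in CF. Oas1a had 8.44 CPM in HFD replicate 1, 3.54 to 4.91 CPM in the other HFD libraries, 4.63 CPM in CF replicate 1 and 7.80 to 11.6 CPM in the other CF libraries. The same pair of libraries was out of order in all of these genes, and 47.6% of the 75-base stretches of Oas1a also occur in Oas1g.

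The antiviral effectors act on viral RNA, translation and membranes, and 8 of these 10 genes were below 0 (4 under library size alone), with a median of -0.14. Slfn5, a Schlafen protein (chr11:82951349-82964840), had 22.0, 17.9, 10.2 and 15.4 CPM in HFD and 20.7, 32.2, 28.8 and 20.9 CPM in CF. The HFD libraries sat lower, with only replicate 1 above the lowest 2 CF libraries, and the log2 fold change of -0.65 (SE 0.25) had the lowest p of the members (adjusted p = 0.45). Slfn8 averaged 30.6 ± 2.59 CPM in HFD and 36.5 ± 7.51 CPM in CF (SD, n = 4), a difference within the spread of CF (log2 fold change -0.26, SE 0.15, adjusted p = 0.76). Ifit1 was at 3.92, 1.42, 1.26 and 0.95 CPM in HFD and 0.67, 5.73, 4.44 and 2.26 CPM in CF. Ifit3 was the most variable member, 0.18 CPM in CF replicate 1 and 3.43 CPM in CF replicate 3, a ratio of 19.0. For both IFIT genes CF replicate 1 was the lowest of all 8 libraries, and 41.1% of the stretches of Ifit3 are shared with Ifit3b. Rsad2 (viperin, which makes a chain-terminating nucleotide) had 49.6, 12.6, 10.6 and 14.0 CPM in HFD and 9.64, 23.8, 31.3 and 14.2 CPM in CF. Slfn2 had 73.1 CPM in HFD replicate 1 against 10.9 to 24.0 CPM in the other HFD libraries and 18.4 to 40.4 CPM in CF, and Samd9l 125 CPM against 31.8 to 58.4 and 48.7 to 80.1 CPM. For Rsad2, Slfn2 and Samd9l HFD replicate 1 was the highest library of all, while their log2 fold changes were 0.14, -0.025 and -0.065, with signs that depended on the setting.

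**Figure D3:**
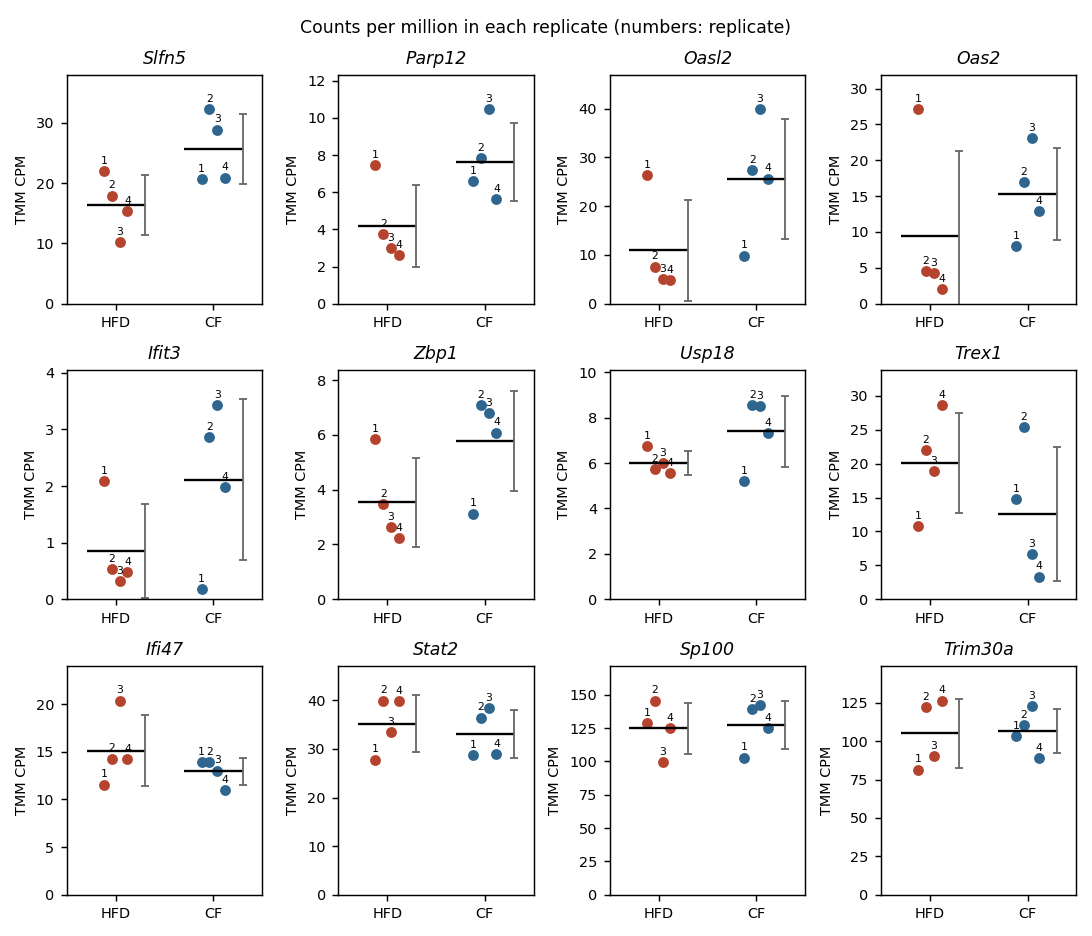
CPM of 12 genes in each replicate (points, numbered by replicate), with the mean (black line) and SD (grey bar, cut at 0) of 4 HFD and 4 CF libraries. HFD replicate 1 lies with the CF libraries for Parp12 and Oasl2 and above them for Oas2, CF replicate 1 lies low for Oasl2, Ifit3 and Zbp1, and both diets cover the same range for Stat2, Sp100 and Trim30a.

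ISG15 is attached to other proteins as ubiquitin is, and USP18 removes it and also blocks IFNAR2. Isg15 was at 4.24, 1.29, 2.18 and 1.94 CPM in HFD and 0.62, 2.42, 2.02 and 1.66 CPM in CF (log2 fold change 0.52, SE 0.47, adjusted p = 0.86). HFD replicate 1 was the highest and CF replicate 1 the lowest, and the other 6 libraries covered 1.29 to 2.42 CPM. Usp18 was steadier, at 6.01 ± 0.52 CPM in HFD and 7.40 ± 1.56 CPM in CF (SD, n = 4; log2 fold change -0.30, adjusted p = 0.77). Among these 4 genes, Herc6, the ISG15 ligase of mice, and Trim25, which activates RIG-I, also had fitted values below 0, and 2 of the 4 genes did so under library size alone.

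Stat2, Irf9 and Sp100 differed by less than 1.5-fold between their highest and lowest library. Stat2, a subunit of ISGF3, was at 27.8, 40.0, 33.4 and 39.8 CPM in HFD and 28.8, 36.5, 38.3 and 28.95 CPM in CF, a log2 fold change of 0.089 with a 95% interval of -0.26 to 0.44. Irf9, the DNA-binding subunit, averaged 37.5 ± 2.01 CPM in HFD and 37.8 ± 5.27 CPM in CF (SD, n = 4), with an interval of -0.28 to 0.26. Irf7, the factor that amplifies interferon transcription, was at 6.41 to 8.75 CPM in HFD and, with CF replicate 1 at 3.38 CPM, at 7.19 to 10.3 CPM in the other CF libraries. Sp100 spanned 99.4 to 146 CPM in HFD and 103 to 142 CPM in CF, an interval of -0.37 to 0.31. The median log2 fold change of these 4 genes was 0.0085 (0.19 under library size alone), and the intervals of Stat2, Irf9 and Sp100 exclude a change of 2-fold in either direction.

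The immunity-related GTPases (IRG) and guanylate-binding proteins (GBP) attack vacuoles that hold pathogens and respond mainly to interferon gamma, and 3 of these 7 genes were above 0 (5 under library size alone), with a median of -0.0096. Ifi47 had 11.6, 14.3, 20.4 and 14.2 CPM in HFD and 14.0, 13.9, 13.04 and 11.0 CPM in CF. It was the only member whose HFD replicates 2 to 4 all lay above all CF libraries, by a narrow gap, against 6.39% of all genes (log2 fold change 0.22, SE 0.18, adjusted p = 0.84). Igtp was at 7.27 to 11.9 CPM in HFD and 7.55 to 9.92 CPM in CF (log2 fold change 0.20, SE 0.17, adjusted p = 0.85). Igtp and Irgm2 overlap on the same strand of chromosome 11 in the annotation and share 8.01% of the exon bases of Igtp and 7.80% of its 75-base stretches, so counts may be shared between them. Apart from Gbp2, at 0.82 to 5.04 CPM, no gene of this group differed by 4-fold between its highest and lowest library.

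PARP proteins add ADP-ribose to proteins and nucleic acids, and all 3 genes of this group were below 0 under TMM and 2 under library size alone. Parp12, which restrains viral translation (chr6:39086410-39118349), was at 7.45, 3.74, 2.99 and 2.62 CPM in HFD and 6.61, 7.82, 10.5 and 5.64 CPM in CF. HFD replicates 2 to 4 lay below all CF libraries and replicate 1 among them, and the log2 fold change was -0.86 (SE 0.35, adjusted p = 0.51). Parp14, which tunes STAT signalling, averaged 47.5 ± 4.84 CPM in HFD and 58.7 ± 11.4 CPM in CF (SD, n = 4; log2 fold change -0.31, adjusted p = 0.66). The remaining 7 genes had a median of -0.40, with 6 below 0 (4 under library size alone). Among them Xaf1, a proapoptotic antagonist of XIAP, had a log2 fold change of -0.51 (SE 0.25, adjusted p = 0.66), and Lgals3bp, a secreted galectin ligand, of -0.40 (SE 0.26, adjusted p = 0.80). Lgals3bp was at 13.8 CPM in HFD replicate 1 and 27.2 to 34.7 CPM in the other HFD libraries, and its value without that replicate was -0.18. Rtp4, a chaperone of receptors, ranged from 0.76 to 5.39 CPM in HFD and from 2.26 to 11.9 CPM in CF. Trim30a was at 81.5, 122, 90.5 and 126 CPM in HFD and at 103, 111, 123 and 89.0 CPM in CF, with an interval of -0.40 to 0.37.

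The members varied in a shared order of libraries. CF replicate 1 was the lowest CF library for 32 of the 48 members, against 27.8% of all genes tested, and CF replicate 2 or 3 was the highest CF library for 45 (47.2% of all genes). HFD replicate 1 was the highest HFD library for 27 members (34.0% of all genes) and the highest of all 8 libraries for 11 (26.5% of all genes). The variation was uneven, since 13 of the 48 differed by at least 4-fold between their highest and lowest library (19.1% of all genes): Rtp4, Oas2, Ifit3, Trex1, Ifit1, Oasl2, Oas3, Isg15, Slfn2, Gbp2, Ddx58, Rsad2 and Ifi204. Over all 48, HFD replicate 1 exceeded the mean of the other HFD libraries for 34 members (median difference 0.34 on the log2 scale), and CF replicate 1 lay under that of the other CF libraries for 43 (median -0.41), against medians of -0.0059 and 0.013 over all genes. For HFD replicate 1 the median difference was 1.78 over the 13 variable members (12 higher) and 0.088 over the other 35 (22 higher), sets that were split by the ratio between libraries. The 35 members that differed by less than 4-fold had 28 fitted values below 0 under TMM (15 under library size alone) and a median log2 fold change of -0.14.

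**Figure D4:**
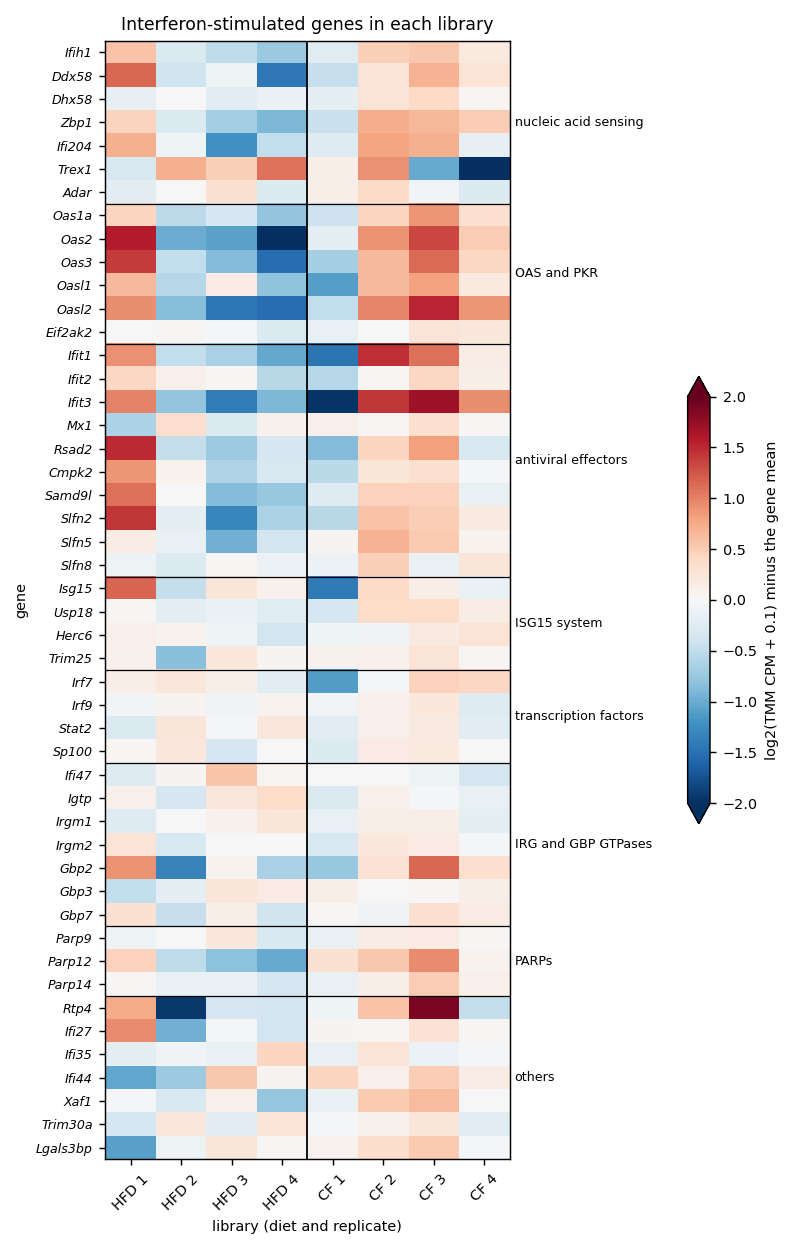
Level of each gene in each library, as log2(TMM CPM + 0.1) minus the mean of the gene over 8 libraries (red above, blue below, colours end at 2 in either direction), grouped by role. For Oas1a, Oas2, Oas3, Oasl2, Ifit1, Ifit3, Rsad2 and Slfn2, HFD replicate 1 and CF replicates 2 and 3 are red. For the same genes HFD replicates 2 to 4 and CF replicate 1 are blue. Most transcription factors and GTPases, other than Irf7 and Gbp2, are pale.

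Neutrophil transcripts moved with this order. The summed CPM of the neutrophil markers was highest in HFD replicate 1 and lowest in HFD replicates 4 and 3, and the 3 libraries with the highest mean deviation of the 48 members (CF replicate 3 at 0.49, CF replicate 2 at 0.37 and HFD replicate 1 at 0.32 on the log2 scale) were also the 3 with the most neutrophil transcripts. The 4 libraries with the lowest deviations, -0.24 to -0.37, were HFD replicates 2 to 4 and CF replicate 1, which had the 4 lowest neutrophil sums. Monocyte markers summed to 262 to 620 CPM in HFD replicates 2 to 4, 490 CPM in CF replicate 1 and 602 to 765 CPM in the other 4 libraries. With the mean level of the 15 neutrophil markers as a covariate, 35 of the 48 members had a fitted value below 0 (44.9% of all genes), the median was -0.14, and 8 members had an unadjusted p under 0.05, all lower (7.82% of all genes). In that fit Oasl2 was called, at -1.12 (adjusted p = 0.016), against 3.52% of all genes called lower. Beyond this fit the part of neutrophil transcripts in the levels of the members was not tested.

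**Figure D5:**
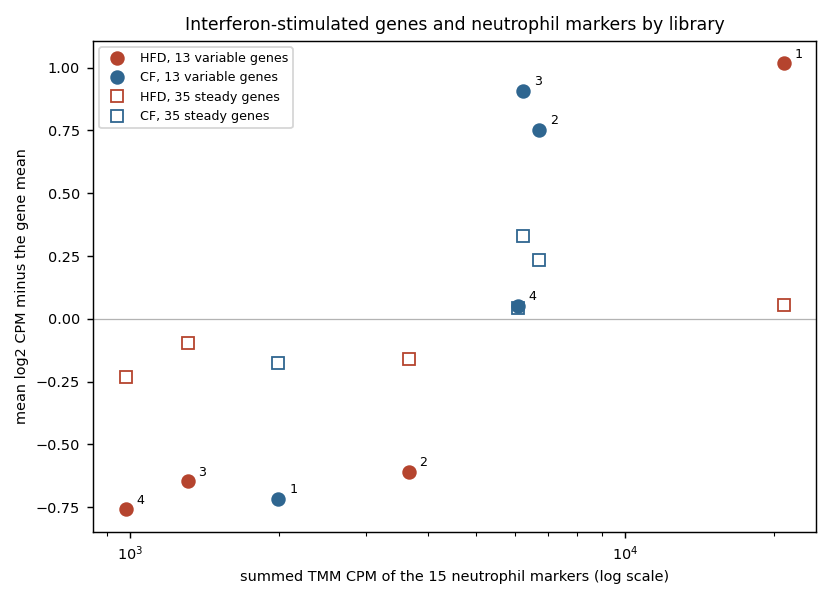
Mean deviation of the 13 genes with at least a 4-fold ratio between libraries (variable, filled circles, numbered by replicate) and the other 35 (steady, open squares) from their mean log2 CPM, against the summed TMM CPM of the 15 neutrophil markers (log scale), for 4 HFD (red) and 4 CF (blue) libraries. HFD replicates 2 to 4 and CF replicate 1 lie at the lower left, and HFD replicate 1 and CF replicates 2 and 3 at the upper right; the sets were split by their ratio between libraries, so the circles spread more by construction.

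Without HFD replicate 1 the fitted values of all 6 OAS and PKR genes, 9 of 10 antiviral effectors and 4 of 7 sensors were lower than with it, and those of Mx1, Dhx58, Adar and Trex1 were higher. The median of the 48 became -0.28 with 37 below 0 (45.8% of all genes), 16 members had an unadjusted p under 0.05, all lower (9.76% of all genes), and Parp12 was called at a log2 fold change of -1.29 (adjusted p = 0.048, against 1.05% of all genes called lower). The OAS and PKR group moved to a median of -1.18 and the antiviral effectors to -0.66 with 10 of 10 below 0, whereas the transcription factors had a median of 0.0089 (0.0085 with all libraries) and the GTPases of 0.017 (-0.0096 with all libraries). The sensors moved to a median of -0.78, the PARPs to -0.36 and the ISG15 system to -0.23. The remaining 7 genes moved towards 0, to -0.26 (-0.40 with all libraries). Oas2 was at -2.07 (SE 0.40, adjusted p = 0.056) and Oasl2 at -2.15 (SE 0.44, adjusted p = 0.069). In the same fit all 15 neutrophil markers were also below 0, with a median of -1.41 and 10 at an unadjusted p under 0.05, as were 9 of 10 monocyte markers, with a median of -0.91 and 3 at an unadjusted p under 0.05. The 11 plasmacytoid DC markers were all above 0, with a median of 1.08, all 11 at an unadjusted p under 0.05 (4.79% of all genes higher) and 6 called (0.214% of all genes called higher). The part of these transcripts in the result was not tested. HFD replicates 2 to 4 lay below all 4 CF libraries for 6 members, Ifih1, Oas2, Oasl2, Slfn5, Parp12 and Ifi27. This held for 6.64% of all genes and 3.97% of protein-coding genes.

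Leaving out CF replicate 1 as well was a choice made after seeing the data. HFD replicate 1 was the highest HFD library for 27 members and CF replicate 1 the lowest CF library for 32. Leaving out both therefore favours lower values in HFD, and the calls are not independent of that choice. In this fit 9 members were called, all lower in HFD, against 2.21% of all genes. They were Oasl2 at a log2 fold change of -2.42 (adjusted p = 0.0049), Ifit3 at -2.62 (0.011), Oas2 at -2.29 (0.014), Oas3 at -1.68 (0.024), Zbp1 at -1.27 (0.027), Ifih1 at -0.92 (0.030), Oas1a at -1.12 (0.039), Parp12 at -1.35 (0.041) and Ifit1 at -1.78 (0.0496). These are sensors of RNA or Z-form nucleic acid, RNA-binding IFIT proteins, OAS family members and a PARP, and 23 members had an unadjusted p under 0.05, all lower (10.6% of all genes). In all, 40 of the 48 had a fitted value below 0 (45.5% of all genes). The libraries so compared also differed without overlap in neutrophil markers, with sums of 980 to 3654 CPM in HFD and 6078 to 6702 CPM in CF. The same held for plasmacytoid DC markers, at 526 to 695 CPM in HFD and 313 to 398 CPM in CF. Progenitor markers (1235 to 1419 CPM in HFD, 1048 to 1117 CPM in CF) and conventional DC markers (461 to 596 and 627 to 1139 CPM) did not overlap either. The sums of monocyte, B cell, T and NK cell and erythroid markers overlapped. With CF replicate 1 alone left out, 42 of the 48 were below 0 (40.4% of all genes), 10 had an unadjusted p under 0.05, all lower (4.6% of all genes), and 0 were called, in a fit in which no gene of the table was called. The other 6 libraries were also left out in turn. At an unadjusted p under 0.05, 1 member was lower without HFD replicate 2 (5.19% of all genes), 2 without HFD replicate 3 (5.47%) and 2 without CF replicate 4 (5.14%), and 0 were higher. Without HFD replicate 4 there were 0 (5.35% of all genes lower, 1.75% higher), without CF replicate 2 there were 0 lower and 1 higher (5.05% and 3.44%), and without CF replicate 3 there were 0 (4.75% and 2.11%). Without CF replicate 3 the median was -0.11 and 30 of the 48 were below 0 (40.7% of all genes).

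The members were also set side by side by their promoters. The 19 members with the core had a median log2 fold change of -0.17, the 19 with a window but no core -0.065, and 14 of 19 were below 0 in each set. The 10 members with no window had a median of -0.30. Of the 13 variable members, 7 held the core and 3 did not. Both Oasl2 and Parp12 were without it, and Oas3, Ifih1 and Slfn5 had it.

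The pathway around the members was also measured, with 90 of 97 further listed symbols matched to genes in the table. No gene of these passed the test in edgeR, 6 were lower and 3 higher at an unadjusted p under 0.05 (5.34% and 3.22% of all genes), DESeq2 called 2 (3.58% of all genes) and limma voom 0. The median log2 fold change was -0.065, -0.083 without HFD replicate 1, -0.10 without CF replicate 1 and -0.13 without both. It lay at -0.00025 without HFD replicate 3 and turned positive without CF replicate 3 (0.017, with 49 of 90 above 0) and under library size alone (0.12, with 59 above 0). All 4 interferon receptor chains with values were transcribed in every library. Ifnar1 was at 51.5, 81.2, 67.2 and 69.5 CPM in HFD and 57.0, 59.4, 57.0 and 56.7 CPM in CF (log2 fold change 0.23, SE 0.13, adjusted p = 0.76), and Ifngr2, a chain of the interferon gamma receptor, had a log2 fold change of -0.091 (SE 0.14). Tyk2, the kinase bound to IFNAR1, was at 30.3, 31.6, 28.8 and 30.8 CPM in HFD and 37.3, 37.9, 33.6 and 36.4 CPM in CF. All of its HFD libraries lay below all CF libraries, as for 3.58% of all genes and 0.951% of protein-coding genes. The log2 fold change of -0.26 (SE 0.086, adjusted p = 0.34) became -0.061 under library size alone. Ptpn6, the phosphatase SHP-1, had a log2 fold change of 0.24 (adjusted p = 0.72), as did Irf2bp2, a corepressor of IRF2 (adjusted p = 0.58), and Irf5 had -0.43 (adjusted p = 0.74).

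Upstream of interferon, Tlr3, the endosomal receptor of double-stranded RNA, was at 1.09, 5.22, 9.34 and 6.24 CPM in HFD and 19.8, 11.8, 9.42 and 6.76 CPM in CF (log2 fold change -1.12, SE 0.57, adjusted p = 0.69). HFD replicate 1 was its lowest and CF replicate 1 its highest library, and the value was -0.78 without the former, -0.76 without the latter and -0.42 without both (adjusted p = 0.52). With the neutrophil covariate it was -1.73 (adjusted p = 0.0041). Mavs, the adaptor of RIG-I and MDA5, had a log2 fold change of 0.11 (SE 0.16). Among 58 further interferon-stimulated genes tested, 40 were below 0 (25 under library size alone), with a median of -0.12. Gbp4 was at 4.11, 4.40, 3.44 and 4.76 CPM in HFD and 0.67, 2.42, 1.51 and 1.25 CPM in CF, and its groups did not overlap, with HFD higher as for 2.58% of all genes (log2 fold change 1.52, SE 0.35, adjusted p = 0.13). Phf11d, a PHD finger gene, was at 0.55, 0.98, 0.89 and 0.51 CPM in HFD and 1.21, 2.51, 2.20 and 1.64 CPM in CF, also without overlap (log2 fold change -1.37, SE 0.34, adjusted p = 0.15). These 2 were the genes that DESeq2 called, Gbp4 at an adjusted p of 0.0026 and Phf11d at 0.014.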

How the data were processed

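RNA of CDPs from 4 HFD and 4 CF samples was measured in 8 libraries (NuGEN Ovation Solo, paired reads of 75 bases). The authors deposited raw counts per gene, whole numbers with no normalization. The submitters' processing notes name FastQC, cutadapt, HISAT2, StringTie and GRCm38. The annotation release and the strand setting of the counting are not given in the sources used here, so antisense and overlapping genes may share reads. Columns share a prefix and were matched to replicates by sample number. Of 16119 identifiers, 16067 matched GENCODE vM21 on GRCm38, which gave names, coordinates and exon lengths.

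The members and lists were chosen with earlier results of these data known. Counts were filtered with filterByExpr, normalized by TMM and compared with a robust quasi-likelihood fit in edgeR 4.0.16 (R 4.3.3), with diet as the only term and Benjamini-Hochberg adjustment over all 15837 genes (threshold 0.05). SE and 95% intervals come from this fit. CPM are scaled by TMM. This count test replaced the FPKM comparison of the study. Tested on simulated counts for HFD against CF (15766 genes), edgeR called 36.4% of genes changed 2-fold and 78.8% of those changed 4-fold, with 2.56% of its calls false. DESeq2 1.42.0 called 54.5% and 91.9% with 24.1% false, and limma 3.58.1 (voom) 35.4% and 74.7% with 0.909% false.

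Genes named are members with an unadjusted p under 0.05, the 2 of lowest p per role group, the 5 of highest level per kb, the 5 of largest ratio between libraries, and the 2 pathway genes of lowest p per list. Oas3, Ifih1, Ddx58, Rsad2, Irf7, Irf9, Siglech and other members given only by level, count or name were named after their values were seen. Ifnb1, Ifng, Cxcl10 and 4 further listed pathway genes were not analysed here. Among these was Mb21d1, whose symbol had no match in GENCODE vM21, so its presence among the counts was not checked. The other settings tried were library size alone, size factors by RLE, limma voom, DESeq2, no filter, 1 CPM in 4 libraries, protein-coding genes alone, the replicate number as block, and each library left out. Chosen after seeing the data were leaving out both first replicates and the neutrophil covariate. Shared sequence was the share of 75-base stretches of a gene's transcripts found in another gene.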

Additional observations from a re-analysis of the deposited data

Results flagged for a closer look

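Among the 82 groups of 4 libraries looked at for the genes named, 2 held a library whose gap to the nearest of the others took most of the group's range, where chance gives about 1 in 20. Ifnar1, the type I interferon receptor chain, was at 59.4 CPM in CF replicate 2 while the other CF libraries lay between 56.7 and 57.0 CPM, a gap that is small beside the 51.5 to 81.2 CPM of HFD. Irf5, an interferon regulatory factor of myeloid cells, was at 17.2 CPM in CF replicate 3, where the other CF libraries lay between 30.4 and 32.7 CPM and HFD covered 17.0 to 29.01 CPM.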

How the results depend on the processing

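Of the 18 alternatives, RLE size factors, no filter and a filter of 1 CPM in 4 libraries reversed none of the 41 genes named. With library size alone, 24 of the 48 members were above 0, the median was 0.00073, and Sp100 (0.16), Trim30a (0.20), Slfn2 (0.12), Samd9l (0.11), Ifngr2 (0.10) and Irf9 (0.20) changed sign, as the scaling moved all genes. DESeq2 called 2 pathway genes (3.58% of all genes). With the neutrophil covariate, 1 member (lower) and 4 pathway genes (3 lower, 1 higher) were called. Of all 15837 genes, 558 were called lower and 96 higher. Sp100 (0.018) and Slfn2 (0.014) changed sign in that fit. Without both first replicates, 9 members and 5 pathway genes were called, all lower, against 2.21% of all genes. There the median of the members was -0.37, and Isg15 (-0.17), Trim30a (0.072), Rsad2 (-0.90) and Irf7 (-0.24) changed sign. Irf7 was at -0.012 among protein-coding genes alone, and limma voom gave Rsad2 -0.033 and Irf9 0.0010. Beyond the scaling, the cause of these changes was not tested.

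Leaving out each library in turn, 0 to 1 members and 0 pathway genes were called, 6 to 18 members were above 0, and the median ran from -0.28 to -0.11. Log2 fold changes that crossed 0 ran from -0.015 to 0.19 for Stat2, -0.12 to 0.065 for Sp100, -0.16 to 0.087 for Trim30a, -0.87 to 0.26 for Slfn2, -0.65 to 0.15 for Samd9l, -0.18 to 0.0020 for Ifngr2, -0.019 to 0.22 for Mavs, -0.80 to 0.082 for Ddx58, -0.67 to 0.45 for Rsad2, -0.22 to 0.20 for Irf7 and -0.090 to 0.065 for Irf9.

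The labels do not say whether libraries with the same replicate number are paired. Deviations of same-numbered libraries from their group means correlated at -0.44, -0.078, -0.23 and -0.18. Such deviations cancel out within each diet, so these values cannot decide it. With the replicate number as block, 0 members, 0 pathway genes and 0 of all genes were called, 8 members were above 0, the median was -0.24, and Rsad2 changed sign (-0.11). Members had 7 to 5210 counts per library, and Ifit3, with 7 counts in CF replicate 1 and 12 in HFD replicate 3, rests on few reads. The intervals are wide for the variable genes, -2.41 to 1.03 for Oas2.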
